A study of Euphorbia esula with 15 samples.

Results

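The comparison described here is that of leafy spurge crown buds 72 h after shoot removal with crown buds at 0 h, the moment of removal. Its members were the assembled components (the genes of a de novo transcriptome) that exceeded 10 normalized counts throughout the 0 h libraries, throughout the 72 h libraries or in both. They numbered 17508 of the 223732 components in the deposited table: 16106 passed through both groups, 910 through the 0 h libraries alone and 492 through the 72 h libraries alone. A component admitted only through the group in which it was high was selected in part for its difference. Calls in these 2 sets are counted apart below over all components, but the counts for gene lists include such members. The 18 named components admitted through 1 group alone are given with their values and change but no p. The members carried 98.3 to 98.6% of all counts of a library. The value nearest above the minimum was 10.03 and that nearest below it 9.996.

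All plants were of the biotype 1984-ND001 of leafy spurge (Euphorbia esula), a perennial weed. Per the study's methods they were raised in a greenhouse and moved to a growth chamber to acclimate before the experiment. Temperature and day length stayed the same after shoot removal. Shoots were removed from the plants, and the buds below ground on the crown were collected at once (0 h, 3 libraries) or 72 h later (4 libraries). Each library held the pooled buds of several plants, so a replicate is a pool and not a plant. Groups of 6 h and 24 h (4 libraries each) complete the series of 15 and enter the shared fit. Harvests were made around noon per the study's methods, and all libraries shared 1 sequencing lane. Each library was a sample of its own in the labels, and p-values measure the spread between such pools.

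Crown buds of a leafy spurge plant with intact shoots do not grow out, a state called paradormancy. Removing the shoots takes away the growing tips and leaves that inhibit the buds, and buds then resume growth. In a plant bud, outgrowth involves entry of meristem cells into division, expansion of cells whose walls are loosened, greening of leaf primordia, use of stored carbohydrate, and a changed balance of abscisic acid, auxin, cytokinin, gibberellin and jasmonate.

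Counts per library ranged from 2569254 to 6649334 at 0 h and from 1847115 to 7253556 at 72 h. Spearman correlations between libraries of a group were 0.972 to 0.985. Counts of a pair of libraries differed from each other by more than sampling noise in every pair, with a chi-square per degree of freedom of 1.39 for replicates 1 and 2 of 0 h and 1.60 to 2.40 between the 72 h libraries. Replicate 3 of 0 h stood apart from the other two 0 h libraries, at 5.68 and 3.77, and calls that are lost without it are named below. Components with a non-plant best hit took 0.138 ± 0.0120% of counts at 0 h (n = 3, SD) and 0.169 ± 0.0105% at 72 h (n = 4, SD), without overlap (exact two-sided permutation test, p = 0.057, the smallest that 3 against 4 libraries allow). Transcripts matching the plastid and mitochondrial genomes took 0.147 ± 0.0138% and 0.169 ± 0.0162% (exact two-sided permutation test, p = 0.17). Their part in the results was not tested. Markers of cell types that a bud can hold were present in both groups: the 32 components of meristem and leaf primordium genes summed to 5933 to 6186 normalized counts at 0 h and to 6240.4 to 6819 at 72 h, and none was at 0 in any library. The epidermal cuticle and wax list (34 components, none at 0) summed to 7998 to 10314 and 9622 to 10703. The secondary wall and lignin list (54, none at 0) summed to 13051 to 16108 and 12612 to 13913. The latex list (10, none at 0) summed to 12420.2 to 13602 and 10121 to 11709.5, without overlap.

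At 72 h the buds held more transcripts of the photosystems (31 of 42 tested components higher) and of mitosis (23 of 28) than at 0 h. They held fewer of starch synthesis (11 of 17 lower), of hypoxia and fermentation (14 of 20), and of part of the abscisic acid (11 of 38) and jasmonate (9 of 29) pathways. Of the 17508 components, 3032 were called by edgeR's quasi-likelihood test at a Benjamini-Hochberg adjusted p under 0.05, which is 17.3% of those tested. The components higher at 72 h numbered 1664 (9.50%) and those lower 1368 (7.81%). Most changes were modest: the median log2 fold change was 0.59 among the higher and -0.58 among the lower, against 0.02 over all components. At least 2-fold changes were found in 337 of the higher and 228 of the lower components, and at least 4-fold changes in 24 and 45. Both counts of the latter class include components admitted through 1 group alone. Those were more numerous through 0 h (910) than through 72 h (492), so the 24 and 45 are not compared further. The libraries of 0 h and 72 h did not overlap for 4547 components (26.0%), among them 2718 of those called. Components admitted only through 72 h gave 121 higher calls among 492, and those admitted only through 0 h gave 104 lower calls among 910. Of the 1094 components without a named hit, 63 were higher and 66 lower. Of the 36 with a non-plant hit, 6 were called, all higher.

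**Figure D1:**
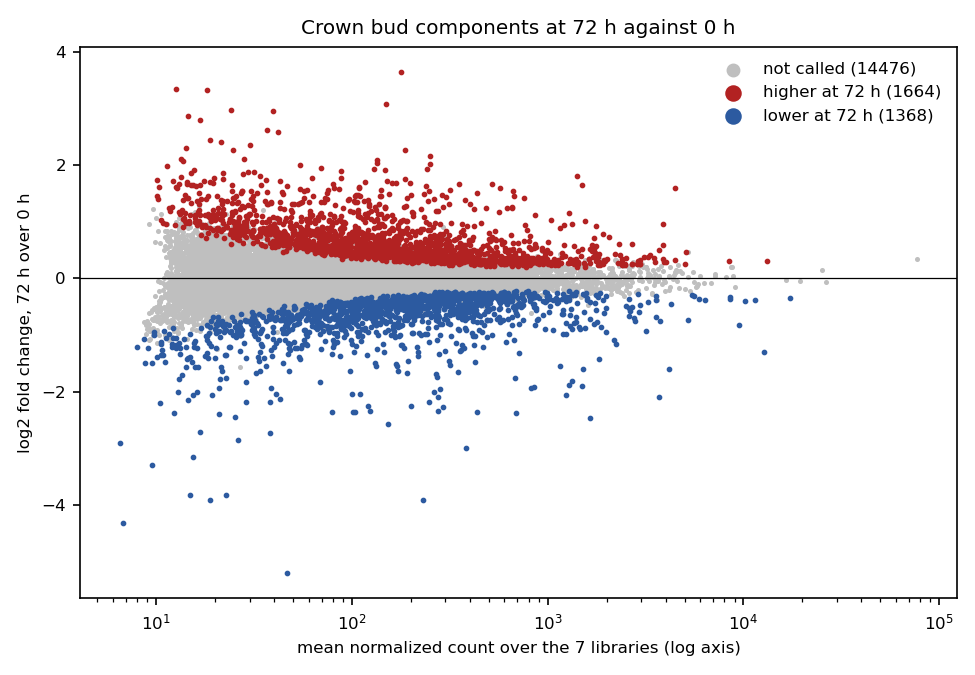
Each point is 1 of 17508 components, with its mean normalized count over the 7 libraries of 0 h and 72 h on a log axis and its fitted log2 fold change, 72 h over 0 h, on the vertical axis. The 1664 components called higher (red) and 1368 called lower (blue) spread over the whole range of abundance, and the 14476 not called (grey) lie around 0.

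The same fit compared 72 h with the time points in between. Against 24 h, 9052 components differed, 27.9% of all higher at 72 h and 23.8% lower. Against 6 h, 4374 differed, 13.7% higher and 11.3% lower. These comparisons share the 72 h libraries with the one described, so their values are given only side by side. Lists of genes were taken from best Arabidopsis hits (AGI numbers) and names of best protein hits, and shares of a list called are to be read against the 9.50% and 7.81% over all components. Where edgeR called 0 members of a list in one direction, DESeq2 and limma called 0 as well, and at an unadjusted p under 0.05 that direction held 1 member in chlorophyll synthesis, DNA replication and ethylene synthesis (all lower), 2 in the meristem list (lower) and 0 in the other lists.

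**Figure D2:**
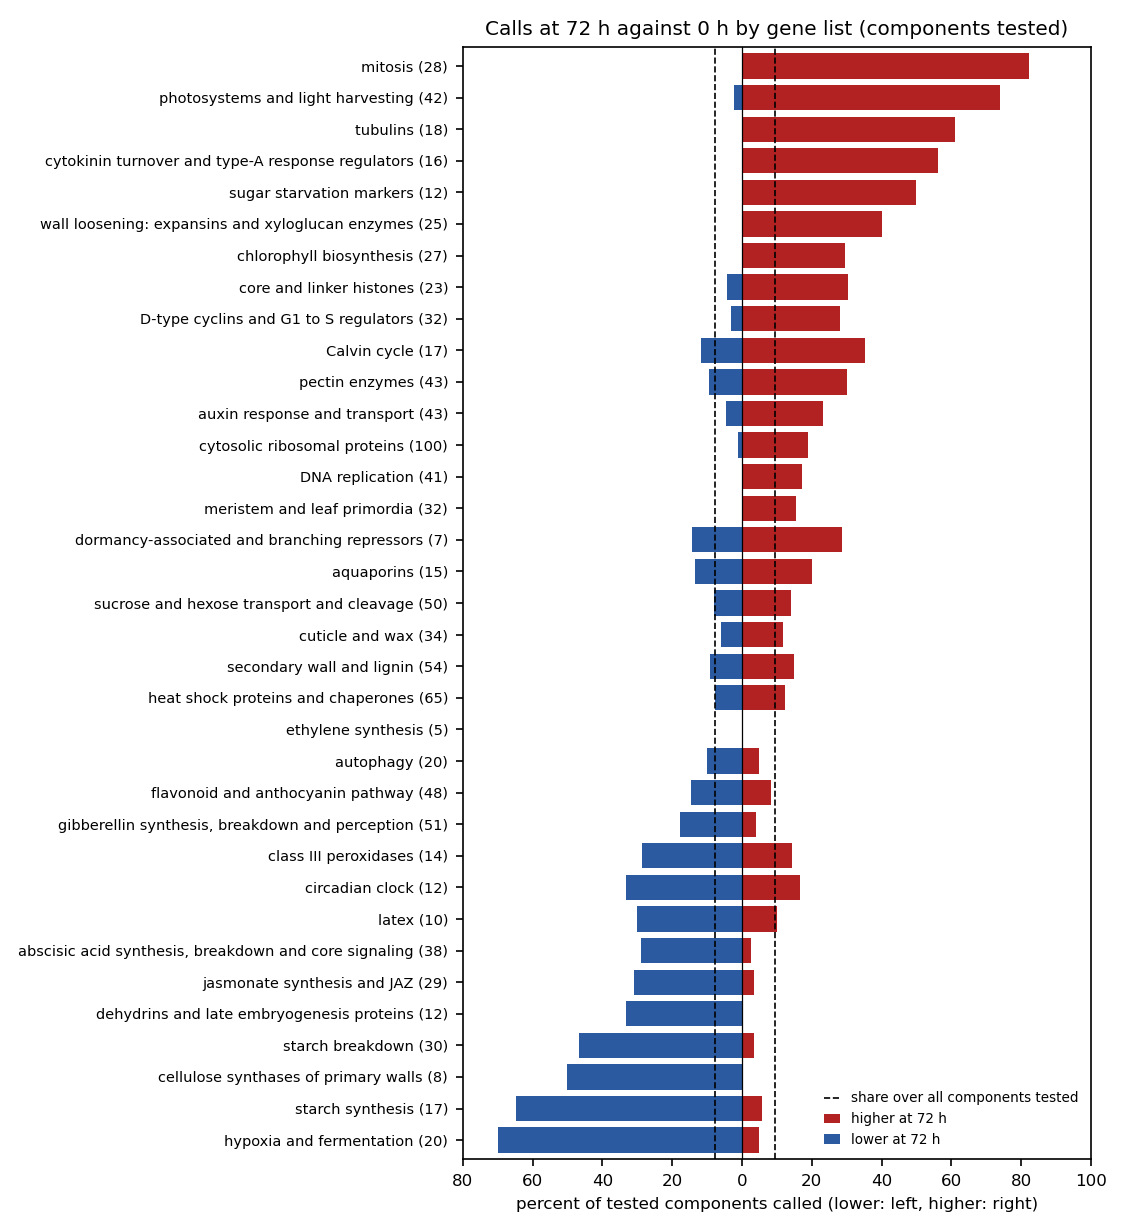
For each of the 35 gene lists, with the number of tested components in brackets, the bars give the percent called higher (right, red) or lower (left, blue) at 72 h than at 0 h, and the dashed lines the shares over all components, 9.50% and 7.81%. Mitosis (23 of 28 higher) and photosystems and light harvesting (31 of 42 higher) lie at the top and hypoxia and fermentation (14 of 20 lower) and starch synthesis (11 of 17 lower) at the bottom.

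Of the 12 largest increases among named plant genes with separated groups, 6 were admitted through 72 h alone, and their separation and place follow in part from that. The 12 included 3 chlorophyll a/b binding proteins, described with photosynthesis, and an A-type response regulator, described with the hormones. First among them was a beta-xylosidase/alpha-L-arabinofuranosidase (comp135652_c0, best Arabidopsis hit AT5G09730), an enzyme that trims xylose and arabinose from cell wall polysaccharides. Its normalized counts were 27.5, 21.5 and 19.6 at 0 h and 224, 258, 271 and 425 at 72 h. Every 72 h library lay far above every 0 h library, and the log2 fold change was 3.65 ± 0.32 (SE, edgeR adjusted p = 1.1e-07). Its mean at 24 h was 9.55 ± 6.46 (n = 4, SD), and the log2 difference of 72 h from 24 h was 5.0 (edgeR adjusted p = 6.1e-11). A second enzyme of this family (comp131254_c0, AT5G49360) rose as well, from 89.1, 128 and 68.1 to 499, 300.3, 419 and 253, a change of 2.02 ± 0.21 (SE, edgeR adjusted p = 1.1e-06). Its mean at 24 h was 415 ± 74.0 (n = 4, SD).

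A glycine cleavage system H protein (comp120102_c1), part of the mitochondrial complex that handles photorespiratory glycine, was near the detection limit at 0 h. It had 2.43, 1.66 and 3.27 at 0 h and 45.2, 22.3, 22.3 and 30.7 at 72 h, a log2 fold change of 3.34 ± 0.55 (SE, admitted through 72 h alone). An auxin-binding protein ABP19a of the germin-like family (comp109141_c0, AT1G72610) had 4.05, 1.66 and 3.93 at 0 h and 17.7, 22.3, 27.1 and 40.2 at 72 h and rose by 2.80 ± 0.41 (SE, admitted through 72 h alone). All 0 h values of these components were below 5. A lipid binding protein of the protease inhibitor and lipid transfer family (comp100840_c0, AT4G12510) had 4.05, 4.97 and 19.6 at 0 h and 66.7, 67.3, 65.4 and 66.1 at 72 h. The 72 h libraries were nearly equal, and replicate 3 of 0 h stood above the other 0 h libraries. Its change was 2.59 ± 0.68 (SE, admitted through 72 h alone).

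A thioredoxin H-type protein (comp104864_c0) rose from 0.810, 1.66 and 5.24 to 17.7, 18.3, 30.3 and 28.3, a change of 2.87 ± 0.47 (SE, admitted through 72 h alone). Its peak came earlier, with 118 ± 29.0 (n = 4, SD) at 6 h. A transcription regulator (comp114319_c1), whose Arabidopsis hit AT1G26945 is a small helix-loop-helix protein without a DNA-binding domain, had 2.43, 1.66 and 7.20 at 0 h and 23.6, 24.5, 15.9 and 23.6 at 72 h and a change of 2.32 ± 0.42 (SE, admitted through 72 h alone). A zinc finger protein (comp118153_c0, AT4G01730) had 20.2, 24.9 and 16.4 at 0 h and 66.7, 79.3, 84.5 and 87.4 at 72 h and a change of 2.02 ± 0.26 (SE, edgeR adjusted p = 1.6e-05).

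Among the 12 largest decreases were 2 heat shock proteins, a starch enzyme, a LOB domain protein and a protein phosphatase 2C, all described with their lists. Of the 12, 7 were admitted through 0 h alone, with the same limit as above. The others follow here. An autoinhibited calcium ATPase (comp133180_c0), a pump that removes calcium ions from the cytosol, had 1329.8, 1536 and 989.6 at 0 h and 292, 233, 220.1 and 241 at 72 h. It fell in every library to less than any 0 h value, with a log2 fold change of -2.39 ± 0.22 (SE, edgeR adjusted p = 1.5e-07), and had been as low as 304 ± 26.7 (n = 4, SD) at 6 h. A type 2 ribosome-inactivating protein (comp93118_c0), a plant defense toxin, had 174, 139 and 1183 at 0 h and 35.3, 47.4, 22.3 and 11.8 at 72 h. Replicate 3 of 0 h exceeded the others many times, but the groups did not overlap and the change was -3.91 ± 0.78 (SE, edgeR adjusted p = 0.0013). Without that library it was -2.21 (edgeR adjusted p = 0.040).

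An ATP-binding cassette transporter (comp133263_c0, AT2G29940) had 29.2, 18.2 and 45.8 at 0 h and 5.89, 3.42, 3.19 and 2.36 at 72 h and changed by -3.16 ± 0.52 (SE, admitted through 0 h alone). A nucleoredoxin (comp135918_c0), an oxidoreductase that reduces target proteins, had 63.2, 53.0 and 105 at 0 h and 13.7, 11.4, 11.2 and 9.45 at 72 h and changed by -2.73 ± 0.38 (SE, admitted through 0 h alone). In both, replicate 3 of 0 h was the highest library. The subtilisin inhibitor (comp121540_c0), a protease inhibitor of the defense response, showed the same order, with 25.1, 21.5 and 53.7 at 0 h and 1.96, 6.85, 6.38 and 2.36 at 72 h and a change of -2.72 ± 0.44 (SE, admitted through 0 h alone).

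A UDP-glucosyltransferase (comp114061_c0) had 47.8, 34.8 and 55.6 at 0 h and 13.7, 6.85, 6.38 and 11.8 at 72 h and changed by -2.45 ± 0.32 (SE, admitted through 0 h alone). For a thaumatin-like protein (comp99007_c0), of another defense family, the values were 24.3, 21.5 and 21.6 at 0 h and 9.82, 4.00, 0 and 4.72 at 72 h, and the change was -2.38 ± 0.44 (SE, admitted through 0 h alone).

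Photosynthesis genes rose together. The light reactions take place in photosystems whose antennae are chlorophyll a/b binding proteins, and they are low in tissue that grows in the dark below ground. Of the 42 tested components of the photosystems and light harvesting list (of 113 matched in the table, the rest under the minimum), 31 were called higher and 1 lower, with a median log2 fold change of 1.30 against 0.02 over all components. Leaving out any one library left 29 to 32 higher. In bulk buds, more cells of a type and more RNA per cell cannot be told apart. The list summed to 4854 to 5076 normalized counts at 0 h and 9470.4 to 13234 at 72 h.

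An antenna protein of photosystem II (comp127703_c0, hit AT3G08940) had 376, 351 and 356 at 0 h and 943, 776, 793 and 1006 at 72 h. The groups were well apart, and the log2 fold change was 1.27 ± 0.11 (SE, edgeR adjusted p = 1.3e-07), the lowest p of the list. A further antenna protein (comp106911_c0, AT5G54270) had the list's largest increase, from 61.6, 54.7 and 57.0 to 321, 276, 220.1 and 319, a change of 2.27 ± 0.38 (SE, edgeR adjusted p = 0.00028). Antennae of photosystem I had increases of similar size. The LHCA1 match (comp129346_c0) had 39.7, 44.7 and 50.4 at 0 h and 243, 157, 147 and 259.9 at 72 h and a change of 2.10 ± 0.29 (SE, edgeR adjusted p = 3.0e-05). The LHCA3 match (comp123990_c0) had 47.0, 41.4 and 53.0 at 0 h and 226, 201, 128 and 248 at 72 h and a change of 2.04 ± 0.35 (SE, edgeR adjusted p = 0.00037). Replicate 3 was the lowest 72 h library for the last 3 of these antennae, and still lay above every 0 h library.

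Core and oxygen-evolving subunits were higher too. Subunit IV A of photosystem I (comp134431_c1), which helps to dock ferredoxin, had 73.7, 91.2 and 66.1 at 0 h and 206, 207, 193 and 248 at 72 h, a change of 1.5 ± 0.17 (SE, edgeR adjusted p = 4.1e-06). The oxygen-evolving enhancer proteins stabilise the water-splitting manganese cluster. Enhancer 3 (comp106304_c0) had 104, 128 and 96.9 at 0 h and 342, 348, 276 and 371 at 72 h and changed by 1.64 ± 0.19 (SE, edgeR adjusted p = 4.8e-06), and enhancer 1 (comp107311_c0) had 194, 204 and 234 at 0 h and 599, 603, 491 and 728 at 72 h and changed by 1.51 ± 0.19 (SE, edgeR adjusted p = 1.1e-05). The means of all 7 components named so far lay between those of 0 h and 72 h at both 6 h and 24 h: enhancer 3, for example, had means of 202 ± 34.9 (n = 4, SD) at 6 h and 214 ± 62.8 (n = 4, SD) at 24 h. Of the 42 components, 15 were higher at 72 h than at 24 h and 3 lower, and 28 were higher than at 6 h and 0 lower by edgeR. The only member called lower (comp124975_c0), chosen after its values were seen, also has the LHCA1 gene as its best Arabidopsis hit. It had 28.3, 26.5 and 35.3 at 0 h and 25.5, 17.7, 17.5 and 18.9 at 72 h, a change of -0.67 ± 0.22 (SE, edgeR adjusted p = 0.039), a call lost without 0 h replicate 1, 0 h replicate 3, 72 h replicate 2, 72 h replicate 3 or 72 h replicate 4, and with DESeq2, limma, the 7 libraries alone or a replicate block.

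The study designed primers for quantitative RT-PCR on the LHCA1 gene and on the cyclin D3;1 gene (CYCD3;1, below). They are shown because both genes are matched by components described here. Each is given from 5′ to 3′ without any base marked. LHCA1 is the best Arabidopsis hit of 2 tested components and CYCD3;1 of 3, and which of them a primer pair amplifies was not tested.
LHCA1 forward: agatgggctatgctcgctgttc
LHCA1 reverse: ccccggggtacttcttcttttc
CYCD3;1 forward: caagaagatcaaggagaaaacacc
CYCD3;1 reverse: aagaaaattaacggccaaaactg

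**Figure D3:**
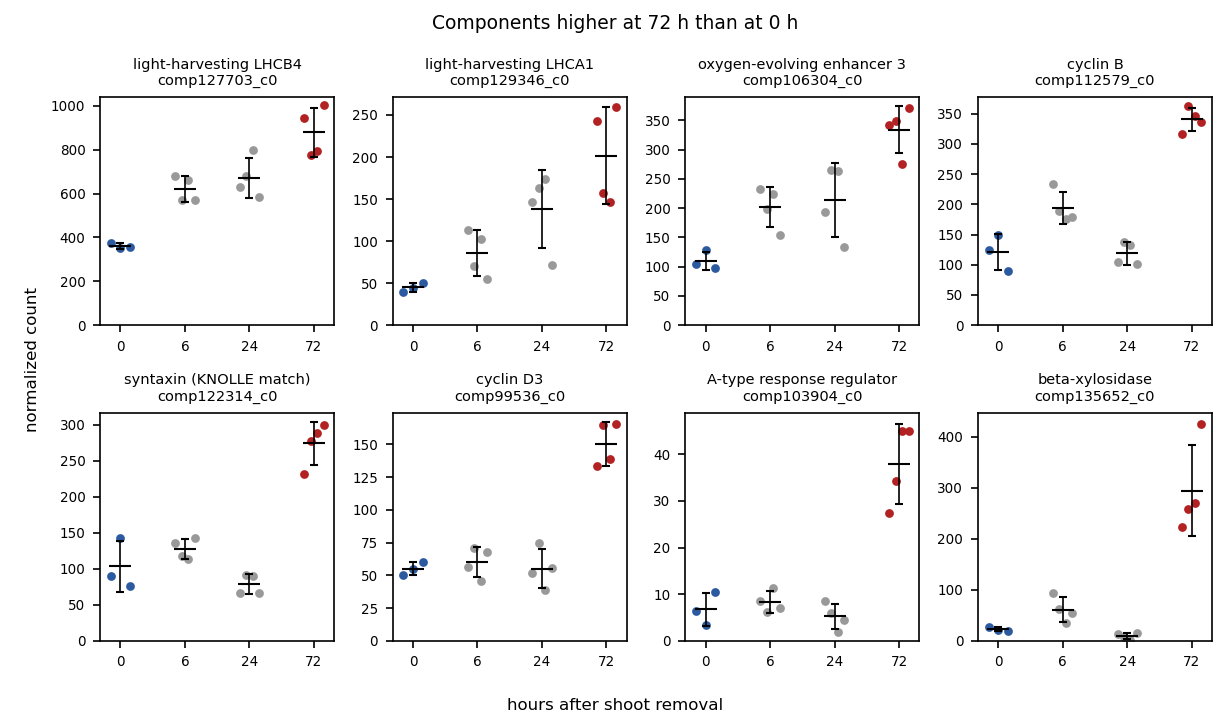
Normalized counts of 8 components by hours after shoot removal (0, 6, 24 and 72). Each point is a library (0 h in blue, 72 h in red) and the black marks are the mean and SD. All 72 h libraries of the LHCA1 match (147 to 259.9) lie above its 0 h libraries (39.7 to 50.4), and the cyclin B, syntaxin and cyclin D3 components have their highest libraries at 72 h.

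Chlorophyll synthesis rose in part. Of 27 tested components 8 were higher and 0 lower by edgeR, with a median of 0.15. Called members included 3 subunit components of magnesium chelatase (comp132498_c1, comp117164_c1 and comp136389_c0), the first step toward chlorophyll proper, at 0.56, 0.64 and 0.87, chosen after their values were seen. A protochlorophyllide reductase match (comp113759_c0, AT5G54190), which makes chlorophyllide in the light, had 263, 312 and 244 at 0 h and 544, 659, 601 and 751 at 72 h and changed by 1.25 ± 0.23 (SE, edgeR adjusted p = 0.00060). A second one (comp113447_c0, AT1G03630) changed by 1.16 ± 0.22 (SE, edgeR adjusted p = 0.0010). The magnesium-protoporphyrin monomethyl ester cyclase (comp114730_c1), whose best hit is leafy spurge's own protein, had 162, 149 and 149.9 at 0 h and 383, 360.1, 305 and 371 at 72 h and a change of 1.2 ± 0.24 (SE, edgeR adjusted p = 0.0011). A geranylgeranyl reductase (comp102044_c0), which makes the tail of chlorophyll, had 228 ± 18.8 (n = 3, SD) at 0 h and 358 ± 62.2 (n = 4, SD) at 72 h, a change of 0.63 ± 0.13 (SE, edgeR adjusted p = 0.0019).

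The Calvin cycle, which fixes carbon dioxide, was mixed: of 17 tested components 6 were higher and 2 lower, the latter count being 1 without 0 h replicate 2, 0 h replicate 3, 72 h replicate 2, 72 h replicate 3 or 72 h replicate 4. The groups were separate for a plastid glyceraldehyde 3-phosphate dehydrogenase (comp114329_c0), with 217, 259 and 177 at 0 h and 601, 521, 402 and 621 at 72 h and a change of 1.32 ± 0.26 (SE, edgeR adjusted p = 0.0010). The small subunit of Rubisco, the enzyme that captures carbon dioxide, was represented by components that moved in opposite directions. One (comp100017_c0, AT5G38420) had 275, 270.2 and 244 at 0 h and 1286, 642, 531 and 759.5 at 72 h, a change of 1.60 ± 0.36 (SE, edgeR adjusted p = 0.0035). The other (comp102721_c0, AT1G67090) had 762, 812 and 909 at 0 h and 546, 574, 496 and 746 at 72 h, a change of -0.50 ± 0.11 (SE, edgeR adjusted p = 0.0028). Reads of near-identical copies are divided among contigs by the counting program, so the level of each copy is uncertain. An aldolase (comp117289_c3) rose from 13.8, 6.63 and 12.4 to 56.9, 37.7, 22.3 and 70.9, a change of 1.89 ± 0.42 (SE, admitted through 72 h alone).

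Cell division genes of the mitotic phase rose. Of 28 tested components of the mitosis list, 23 were higher and 0 lower by edgeR, with a median of 0.98, and leaving out any one library left 22 to 24. The groups did not overlap for 25 of the 28, against 26.0% of all components tested. B-type cyclins drive entry into mitosis. One of them (comp112579_c0, AT5G06150) had 125, 149 and 90.5 at 0 h and 316, 363, 346 and 336 at 72 h and a log2 fold change of 1.54 ± 0.15 (SE, edgeR adjusted p = 2.9e-07). Another (comp130587_c0, AT4G35620) had 30.8, 34.8 and 17.7 at 0 h and 94.2, 105, 104 and 99.2 at 72 h, a change of 1.95 ± 0.21 (SE, edgeR adjusted p = 1.7e-06), the largest of the list. The spindle checkpoint protein MAD2 (comp105650_c0) had 45.4, 36.5 and 30.8 at 0 h and 106, 139, 161 and 94.5 at 72 h and changed by 1.78 ± 0.20 (SE, edgeR adjusted p = 2.1e-06). The syntaxin of the forming cell plate, KNOLLE in Arabidopsis (comp122314_c0), had 90.8, 143 and 76.6 at 0 h and 232, 277, 288 and 300.0 at 72 h and changed by 1.48 ± 0.17 (SE, edgeR adjusted p = 3.0e-06). Replicate 3 was the lowest 0 h library for all 4. Other members called higher include A-type cyclins, B-type cyclin-dependent kinases, Aurora kinases and activators of the anaphase-promoting complex.

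These mitotic transcripts differed from the earlier time points as well. Against 24 h, 24 of the 28 were higher at 72 h and 3 lower, and against 6 h 23 were higher and 1 lower. The first cyclin B had means of 194 ± 26.8 (n = 4, SD) at 6 h and 119 ± 19.1 (n = 4, SD) at 24 h.

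Regulators of the step from rest to DNA synthesis rose in part. Of 32 tested components of the D-type cyclin list, 9 were higher and 1 lower. The name rule of this list also matches protein hits named cyclin-dependent, such as kinases. Its members are therefore not all D-type cyclins or regulators of this step, and it can share members with the mitosis list. D-type cyclins bring resting cells into the cycle and their transcripts respond to cytokinin and sucrose. A cyclin D3 (comp99536_c0, hit CYCD3;1) had 50.2, 54.7 and 60.3 at 0 h and 133, 165, 139 and 165 at 72 h and a change of 1.46 ± 0.18 (SE, edgeR adjusted p = 1.3e-05). Another CYCD3;1 match (comp108808_c0) had 146, 118 and 126 at 0 h and 187, 265, 246 and 239 at 72 h and a change of 0.86 ± 0.14 (SE, edgeR adjusted p = 0.00025). Neither pair of groups overlapped. The remaining CYCD3;1 match (comp120323_c1) was not called, at 0.10 (edgeR adjusted p = 0.83). A P-type cyclin match (comp119346_c0, AT2G44740) changed by 1.37 ± 0.26 (SE, edgeR adjusted p = 0.00077) and a further D-type cyclin (comp105625_c0, AT4G03270) by 1.08 ± 0.22 (SE, edgeR adjusted p = 0.0013). The single lower member (comp135922_c1), a retinoblastoma-binding protein, chosen after its values were seen, had 10.5, 16.6 and 14.4 at 0 h and 3.93, 1.71, 7.97 and 11.8 at 72 h and a change of -1.5 ± 0.43 (SE, admitted through 0 h alone). Its call was lost without 0 h replicate 3 or 72 h replicate 2.

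DNA replication genes had mostly small positive changes. Of 41 tested components 7 were called higher and 0 lower by edgeR, 34 changes were positive, and the median was 0.20. The count of calls was 1 without 0 h replicate 3, 3 without 72 h replicate 2 and 2 without 72 h replicate 4. The CDC45 match (comp128324_c0, AT3G25100), part of the replicative helicase, kept its call in each case, with 81.8, 76.2 and 58.3 at 0 h and 102, 120.4, 132 and 135 at 72 h and a change of 0.78 ± 0.18 (SE, edgeR adjusted p = 0.0044). The small chain of ribonucleotide reductase (comp127087_c0), which supplies deoxynucleotides, had 480.3, 492 and 326 at 0 h and 630.2, 599, 620.4 and 683 at 72 h and changed by 0.56 ± 0.16 (SE, edgeR adjusted p = 0.021), a call lost without 0 h replicate 3 or 72 h replicate 4. Against 24 h, 36 of 41 were higher at 72 h than at 24 h, with a median of 1.57, and 26 of 41 were higher than at 6 h. For ribonucleotide reductase the mean at 24 h was 72.5 ± 24.1 (n = 4, SD), and the 72 h libraries exceeded it by 3.12 (edgeR adjusted p = 1.1e-11) on the log2 scale. A licensing factor match (comp105979_c0, AT2G31270) and a minichromosome maintenance protein (comp97610_c0) were also called, at 0.51 ± 0.15 (SE, edgeR adjusted p = 0.019) and 0.52 ± 0.15 (SE, edgeR adjusted p = 0.022). Both calls were lost in several leave-one-out fits.

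Histones, which package new DNA, gave 7 higher and 1 lower of 23, and the higher count was 4 without 0 h replicate 1 or 72 h replicate 4, 11 without 0 h replicate 2 and 3 without 0 h replicate 3. A histone H2A (comp105365_c0) had 2117, 2567 and 1538 at 0 h and 2822, 3007, 3175 and 3676 at 72 h and changed by 0.62 ± 0.13 (SE, edgeR adjusted p = 0.0024), and its mean at 24 h was 391 ± 53.1 (n = 4, SD). Histone H1 (comp125798_c1), again a leafy spurge protein, had 815, 919 and 842 at 0 h and 1130.4, 1039.7, 1106 and 1104 at 72 h, a change of 0.35 ± 0.08 (SE, edgeR adjusted p = 0.0040). A second H2A (comp93890_c0) and an H2B-type component (comp107903_c0, AT5G59910) changed by 0.68 ± 0.18 (SE, edgeR adjusted p = 0.011) and 0.52 ± 0.15 (SE, edgeR adjusted p = 0.016), both lost without 0 h replicate 3. One histone H3 (comp120427_c1), chosen after its values were seen, changed by -0.30 ± 0.09 (SE, edgeR adjusted p = 0.020), lost without 0 h replicate 2 or 72 h replicate 2.

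Tubulins, the subunits of spindle and cortical microtubules, gave 11 higher and 0 lower of 18 by edgeR, with a median of 0.30. The count was 7 without 0 h replicate 1 or 0 h replicate 3. A beta tubulin (comp100679_c0) had 58.1, 69.6 and 57.0 at 0 h and 102, 100.4, 104 and 123 at 72 h and a change of 0.81 ± 0.15 (SE, edgeR adjusted p = 0.00060). The most abundant member (comp129968_c0), an alpha tubulin, had 7043, 7752 and 7456 at 0 h and 9283, 8367, 9196 and 9811 at 72 h, a change of 0.30 ± 0.09 (SE, edgeR adjusted p = 0.027), a call lost without 0 h replicate 1, 0 h replicate 3, 72 h replicate 1, 72 h replicate 3 or 72 h replicate 4. Beta-tubulin 2 (comp92781_c0) had 69.4, 58.0 and 52.6 at 0 h and 64.8, 135, 112 and 139 at 72 h and changed by 0.94 ± 0.20 (SE, edgeR adjusted p = 0.0020), and its replicate 1 of 72 h lay within the 0 h range. A beta-tubulin 1 (comp113030_c0) and a further alpha tubulin (comp116041_c0) changed by 0.41 ± 0.08 (SE, edgeR adjusted p = 0.0014) and 0.36 ± 0.08 (SE, edgeR adjusted p = 0.0039). Members of this family are similar in sequence, so the division of reads among them is less certain than the standard errors show.

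Cytosolic ribosomal proteins, which rise in growing cells, showed small differences. Of 100 tested components 19 were higher and 1 lower, with a median of 0.14, and the count of higher ones was 8 without 0 h replicate 1, 12 without 0 h replicate 2 or 0 h replicate 3 and 10 without 72 h replicate 4. The strongest by p, L36 of the large subunit (comp94957_c0), had 1963, 1976 and 1981 at 0 h and 2425, 2597, 2566 and 2904 at 72 h, a change of 0.41 ± 0.08 (SE, edgeR adjusted p = 0.0013). L6 (comp111039_c0), L28 (comp109304_c1) and S8 (comp95711_c0) changed by 0.37, 0.37 and 0.36 (edgeR adjusted p = 0.0018, 0.0021 and 0.0030). None of the 19 reached 1.5-fold. Against 24 h, 79 of 100 were higher at 72 h, with a median of 0.66, and against 6 h 67. The lower member (comp121715_c0), chosen after its values were seen, is listed by an L18a hit that carries 5.80% of its counts. It had 105, 131 and 111 at 0 h and 56.9, 38.8, 76.5 and 47.2 at 72 h and a change of -1.13 ± 0.26 (SE, edgeR adjusted p = 0.0045).

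Genes of wall loosening rose in part. Xyloglucan endotransglucosylase/hydrolases (XTH) cut and rejoin the xyloglucan chains that tie cellulose fibres together, and expansins loosen walls without cutting. Of 25 tested components 10 were higher and 0 lower by edgeR, a count that was 6 without 0 h replicate 3, 72 h replicate 2 or 72 h replicate 3. An XTH (comp127998_c0, AT5G65730) had 314, 259 and 254 at 0 h and 599, 519, 531 and 451 at 72 h and a change of 0.93 ± 0.11 (SE, edgeR adjusted p = 7.6e-06). The most abundant of the 4 named (comp122642_c1, AT4G03210) had 1152, 1024 and 1603 at 0 h and 2083, 1970.0, 2097 and 2166 at 72 h and changed by 0.71 ± 0.11 (SE, edgeR adjusted p = 0.00016). Groups were separate in both. The further XTHs comp120426_c1 (AT1G11545) and comp131003_c0 (AT5G65730) changed by 0.84 ± 0.15 (SE, edgeR adjusted p = 0.00042) and 0.81 ± 0.15 (SE, edgeR adjusted p = 0.00073). Levels at 24 h were on either side of those at 72 h: comp127998_c0 had a mean of 1416 ± 149 (n = 4, SD) at 24 h, above 72 h, and comp120426_c1 113 ± 4.98 (n = 4, SD), below it.

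Pectin enzymes moved in both directions, with 13 higher and 4 lower of 43 tested. Pectate lyases cut the pectin of the wall. One (comp107761_c0) had 8.91, 9.94 and 7.20 at 0 h and 31.4, 25.1, 28.7 and 26.0 at 72 h and a change of 1.69 ± 0.29 (SE, admitted through 72 h alone). A pectinesterase (comp128913_c0), which removes methyl groups from pectin, had 14.6, 18.2 and 17.7 at 0 h and 33.4, 44.5, 52.6 and 26.0 at 72 h and a change of 1.29 ± 0.22 (SE, edgeR adjusted p = 0.00035). A polygalacturonase match (comp121320_c0) had 202, 220.4 and 238 at 0 h and 298, 339.6, 354 and 349 at 72 h, a change of 0.61 ± 0.09 (SE, edgeR adjusted p = 9.8e-05). In these 3 the groups were separate, which for the pectate lyase follows in part from its admission through 72 h alone. Another pectinesterase (comp133791_c0) went the other way, with 206, 229 and 275 at 0 h and 114, 146, 145 and 111 at 72 h and a change of -0.84 ± 0.15 (SE, edgeR adjusted p = 0.00034).

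Cellulose synthases of the primary wall, which spin the fibres themselves, were all on the lower side: of 8 components 4 were called lower and 0 higher by edgeR, and the changes ranged from -0.40 to just below 0. The best supported (comp130732_c0) had 1502, 1209.9 and 1565 at 0 h and 1058, 994, 1169 and 1143 at 72 h and a change of -0.40 ± 0.09 (SE, edgeR adjusted p = 0.0035). The remaining calls (comp115405_c0, comp99250_c0 and comp103384_c0) were -0.40, -0.29 and -0.39 (edgeR adjusted p = 0.016, 0.029 and 0.040), and each was lost in at least 2 leave-one-out fits. The count of lower members was 2 without any library other than 72 h replicate 4.

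The secondary wall and lignin list gave 8 higher and 5 lower of 54, with a median of 0.03; the higher count was 2 without 0 h replicate 3, 3 without 72 h replicate 2 and 4 without 72 h replicate 4, and the lower count was 9 without 0 h replicate 3. Single members moved clearly. Hydroxycinnamoyl transferase (comp129018_c0), an early enzyme of the lignin branch that also feeds chlorogenic acid, had 162, 177 and 172 at 0 h and 395, 405, 415 and 477 at 72 h and a change of 1.31 ± 0.13 (SE, edgeR adjusted p = 4.4e-07). Components named cinnamoyl-CoA reductase, the first enzyme specific to lignin monomers, were lower. Of these comp127815_c1 had 385, 424 and 438 at 0 h and 296, 287, 290.3 and 265 at 72 h, a change of -0.54 ± 0.10 (SE, edgeR adjusted p = 0.00044), and comp102964_c0 had 495, 444 and 511 at 0 h and 375, 316, 319 and 354 at 72 h, a change of -0.52 ± 0.10 (SE, edgeR adjusted p = 0.00068). A laccase (comp106640_c1), of the enzymes that polymerise the monomers, had 46.2, 43.1 and 34.0 at 0 h and 19.6, 18.8, 11.2 and 14.2 at 72 h and a change of -1.28 ± 0.28 (SE, edgeR adjusted p = 0.0029).

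Starch genes were lower for both synthesis and breakdown. Starch is a reserve laid down in plastids. Of 17 tested components for its synthesis 11 were lower and 1 higher, with a median of -0.54, and leaving out any one library left 9 to 11. The granule-bound starch synthase (comp112228_c0), which makes amylose, had 6603, 6060.3 and 7485 at 0 h and 2386, 2303, 2135 and 2025 at 72 h. Its groups were far apart, and the log2 fold change was -1.60 ± 0.11 (SE, edgeR adjusted p = 2.9e-09). A starch branching enzyme (comp133490_c0) had 5967, 5564 and 8225 at 0 h and 1737, 1729, 1487 and 1200.1 at 72 h and changed by -2.09 ± 0.16 (SE, edgeR adjusted p = 3.0e-08). ADP-glucose pyrophosphorylase supplies the substrate of the pathway. One large-subunit component (comp132339_c1, AT2G21590) had 2892, 2469 and 3905 at 0 h and 642, 638, 519.9 and 406 at 72 h, the largest fall of the list at -2.47 ± 0.20 (SE, edgeR adjusted p = 3.2e-08), a 5.54-fold lower level. A second component (comp127803_c0, AT1G27680) had 485, 404 and 624 at 0 h and 177, 174, 188 and 170.1 at 72 h and changed by -1.53 ± 0.14 (SE, edgeR adjusted p = 1.4e-07). Replicate 3 of 0 h was the highest library in all 4. A starch synthase with the hit AT4G18240 (comp135436_c1), chosen after its values were seen as the sole member called higher, had 22.7, 31.5 and 30.8 at 0 h and 84.4, 59.4, 67.0 and 85.0 at 72 h and a change of 1.34 ± 0.23 (SE, edgeR adjusted p = 0.00036).

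Of 30 tested components for starch breakdown 14 were lower and 1 higher, with a median of -0.27, and leaving out any one library left 11 to 14. The alpha-glucan water dikinase (comp133891_c0), which phosphorylates the granule surface before it is degraded, had 2689, 2473 and 3383 at 0 h and 1099, 1093, 1043 and 1032 at 72 h and changed by -1.42 ± 0.12 (SE, edgeR adjusted p = 1.1e-07). Plastid glucan phosphorylase was represented by comp103591_c0, comp85598_c0 and comp100868_c1, which all have the hit AT3G29320. The first had 2249.6, 2075 and 3421 at 0 h and 613, 799, 690.1 and 635 at 72 h, a change of -1.91 ± 0.17 (SE, edgeR adjusted p = 1.3e-07). The second changed by -1.93 ± 0.19 (SE, edgeR adjusted p = 4.0e-07) and the third by -2.01 ± 0.22 (SE, edgeR adjusted p = 1.7e-06), with groups as separate as in the first. The sole member called higher (comp132099_c0), a beta-amylase chosen after its values were seen, had 557, 595 and 408 at 0 h and 1221, 1077, 1194 and 989.8 at 72 h and a change of 1.12 ± 0.16 (SE, edgeR adjusted p = 5.8e-05).

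For the starch genes named as lower, the means at 6 h were already below every 0 h library. The granule-bound synthase had a mean of 1587 ± 258 (n = 4, SD) at 6 h and 1539 ± 101 (n = 4, SD) at 24 h, and at 72 h it was above 24 h by 0.52 (edgeR adjusted p = 0.00015). For the phosphorylase comp103591_c0 the means were 557 ± 151 (n = 4, SD) and 353 ± 52.1 (n = 4, SD).

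**Figure D4:**
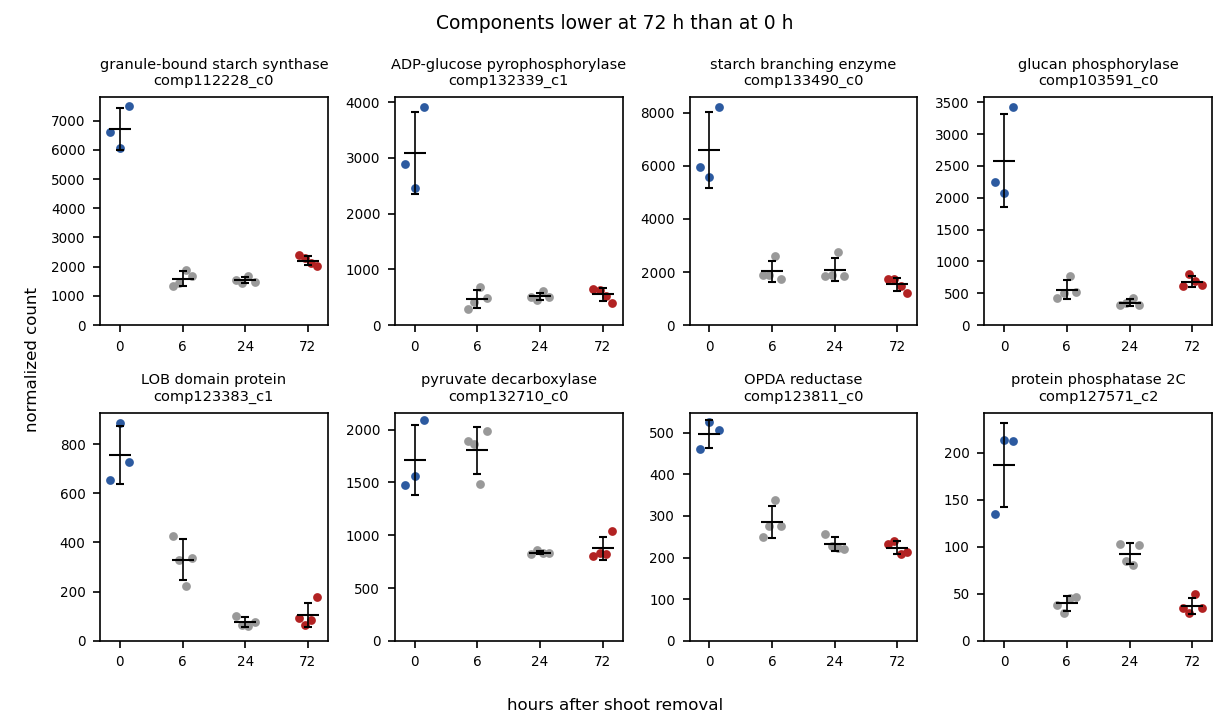
Normalized counts of 8 components by hours after shoot removal (0, 6, 24 and 72). Each point is a library (0 h in blue, 72 h in red) and the black marks are the mean and SD. The granule-bound starch synthase falls from 6060.3 to 7485 at 0 h to 2025 to 2386 at 72 h, and the LOB domain component from 652 to 884 down to 62.7 to 177.

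Sugar transport and cleavage showed no common direction, with 7 higher and 4 lower of 50 and a median of 0.01. The shares over all components were 9.50% and 7.81%. The higher count of the list was 4 without 0 h replicate 1, 2 without 0 h replicate 3 and 3 without 72 h replicate 2 or 72 h replicate 4. The vacuolar invertase (comp123353_c1), which splits sucrose in expanding cells, had 389, 355 and 242 at 0 h and 654, 676, 730.4 and 893 at 72 h and a change of 1.17 ± 0.22 (SE, edgeR adjusted p = 0.00064). Lower were a tonoplast sugar transporter match (comp130038_c0, AT4G35300), at -0.59 ± 0.11 (SE, edgeR adjusted p = 0.00045), and a hexose transporter match (comp100236_c0, AT5G26340), at -0.53 ± 0.10 (SE, edgeR adjusted p = 0.00079). A sucrose synthase match (comp118077_c0, AT4G02280) had 664, 675 and 1080.4 at 0 h and 577, 481, 424 and 506 at 72 h and changed by -0.72 ± 0.16 (SE, edgeR adjusted p = 0.0031).

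Genes that rise in sugar-starved tissue were in part above 0 h: 6 of 12 were higher and 0 lower by edgeR, a count that was 2 without 0 h replicate 1 and 3 without 0 h replicate 2, 72 h replicate 1 or 72 h replicate 2. Asparagine synthetase (comp115335_c0), the classic transcript of dark-starved and dormant tissue, had 560.2, 514 and 645 at 0 h and 2181, 1909.9, 2084 and 1970.2 at 72 h and a change of 1.82 ± 0.17 (SE, edgeR adjusted p = 3.1e-07). Its means at the earlier times were larger, 4041 ± 1330.5 (n = 4, SD) at 6 h and 3659 ± 255 (n = 4, SD) at 24 h. The bZIP11 match (comp133129_c0), a transcription factor translated less when sucrose is high, had 562, 551 and 614 at 0 h and 744, 876, 765 and 864 at 72 h and a change of 0.50 ± 0.08 (SE, edgeR adjusted p = 0.00024). Class II trehalose-6-phosphate synthases (comp134148_c0 and comp124392_c0) changed by 0.51 ± 0.14 (SE, edgeR adjusted p = 0.017) and 0.79 ± 0.23 (SE, edgeR adjusted p = 0.022), each lost in several leave-one-out fits. Relative to 24 h both were lower, at -0.74 (edgeR adjusted p = 4.3e-05) and -1.26 (edgeR adjusted p = 4.0e-06) on the log2 scale.

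Genes of hypoxia and fermentation had the most negative list median, -1.03. These genes are switched on by low oxygen through transcription factors that oxygen destabilises, and ethanol fermentation replaces respiration when oxygen is short. Of 20 tested components 14 were lower and 1 higher, and leaving out any one library left 13 or 14 lower. The LOB domain gene LBD41 of Arabidopsis, a core hypoxia transcript, is the hit of both leading components. The first (comp122621_c0) had 748, 966 and 719 at 0 h and 175, 145, 149.9 and 163 at 72 h. Its groups were far apart and the change was -2.37 ± 0.14 (SE, edgeR adjusted p = 1.1e-09), a 5.17-fold lower level. The second (comp123383_c1) had 652, 884 and 728 at 0 h and 94.2, 62.7, 84.5 and 177 at 72 h and changed by -3.0 ± 0.23 (SE, edgeR adjusted p = 2.8e-08).

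Pyruvate decarboxylase (comp132710_c0), the first step of ethanol fermentation, had 1479, 1565 and 2089 at 0 h and 808, 832, 819.8 and 1039 at 72 h and a change of -0.98 ± 0.11 (SE, edgeR adjusted p = 4.7e-06). Further called members, chosen after their values were seen, belong to the same pathway. The alcohol dehydrogenase components comp123564_c0, comp131308_c0 and comp121333_c1, of the second step, changed by -1.64, -1.61 and -1.34 on the log2 scale, and a second pyruvate decarboxylase (comp125418_c0) by -1.82. Non-symbiotic hemoglobins (comp104840_c0 and comp89047_c0), which scavenge nitric oxide under low oxygen, changed by -1.17 and -1.04. The plant cysteine oxidase match (comp116517_c0, AT5G39890), whose product destabilises the hypoxia factors when oxygen is present, had 615, 635 and 539 at 0 h and 261, 277, 262 and 387 at 72 h and a change of -1.02 ± 0.12 (SE, edgeR adjusted p = 5.6e-06). The sole member called higher (comp105766_c0), a stem-specific protein chosen after its values were seen, had 399, 557 and 409.8 at 0 h and 648, 657, 775 and 739 at 72 h and changed by 0.65 ± 0.17 (SE, edgeR adjusted p = 0.011), lost without 0 h replicate 1 or 0 h replicate 3.

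Relative to 6 h, 17 of 20 were lower at 72 h and 0 higher by edgeR, and relative to 24 h 3 were lower and 5 higher. Pyruvate decarboxylase had a mean of 1805 ± 221 (n = 4, SD) at 6 h and of 836 ± 14.6 (n = 4, SD) at 24 h.

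Abscisic acid (ABA) is a hormone tied to bud inhibition. Receptors bound to ABA inhibit type 2C protein phosphatases, which otherwise block the response, and the genes of these phosphatases are themselves induced by ABA. Of 38 tested components of the ABA list 11 were lower and 1 higher, with a median of -0.18. The lower count was 7 without 72 h replicate 2. The list was highest at 24 h, summing to 8916 to 9615 normalized counts against 7782 to 8534 at 0 h and 6423 to 6895 at 72 h. Against 24 h, 21 of the 38 were lower at 72 h and 5 higher by edgeR. Over all components 23.8% were lower and 27.9% higher than at 24 h. The phosphatase comp127571_c2 had 135, 214 and 212 at 0 h and 35.3, 29.7, 49.4 and 35.4 at 72 h and a change of -2.36 ± 0.20 (SE, edgeR adjusted p = 7.2e-08). Other components with the phosphatase hit AT3G11410 were lower. Of these comp119217_c0 had 27.3, 38.1 and 44.5 at 0 h and 11.8, 10.8, 6.38 and 7.09 at 72 h, a change of -1.94 ± 0.27 (SE, admitted through 0 h alone), and comp124959_c0 had 230.0, 225 and 201 at 0 h and 141, 90.2, 119.6 and 96.9 at 72 h, a change of -1.0 ± 0.17 (SE, edgeR adjusted p = 0.00026). The groups did not overlap for any of them, which for comp119217_c0 follows in part from its admission through 0 h alone. The ABA 8′-hydroxylase match (comp120931_c0, AT4G19230), which degrades the hormone, was lower too, with 459, 471 and 426 at 0 h and 151, 180.0, 212 and 194 at 72 h and a change of -1.29 ± 0.21 (SE, edgeR adjusted p = 0.00017). Another cytochrome P450 of the same family (comp111436_c2, AT3G19270), the sole member called higher and chosen after its values were seen, had 15.4, 29.8 and 31.4 at 0 h and 33.4, 51.9, 41.5 and 44.9 at 72 h and a change of 0.82 ± 0.24 (SE, edgeR adjusted p = 0.019), lost without 0 h replicate 1 or 72 h replicate 2.

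Dehydrins and late embryogenesis proteins, which protect cells from drying and respond to ABA and cold, were in part lower, 4 of 12 with 0 higher by edgeR, a count that was 2 without 0 h replicate 3 or 72 h replicate 2. A dehydrin (comp116004_c0) had 3069, 3377 and 3355 at 0 h and 1439, 1564, 1328 and 1506 at 72 h and a change of -1.16 ± 0.12 (SE, edgeR adjusted p = 8.9e-07). A Lea14-A protein (comp126572_c0) had 1575, 1765 and 1992 at 0 h and 1054, 1188, 1006 and 1177 at 72 h and a change of -0.68 ± 0.10 (SE, edgeR adjusted p = 6.3e-05). A calcium-binding protein of the list (comp118333_c1, AT2G33380) changed by -0.61 ± 0.20 (SE, edgeR adjusted p = 0.041), lost without 0 h replicate 3, 72 h replicate 1, 72 h replicate 2 or 72 h replicate 3. The means of the dehydrin and Lea14-A at 6 h were already close to those of 72 h, at 1592 ± 98.1 (n = 4, SD) and 1152 ± 59.3 (n = 4, SD).

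Jasmonate genes were lower in part, 9 of 29 with 1 higher and a median of -0.19, and leaving out any one library left 7 or 8 lower. The 12-oxophytodienoate reductase (comp123811_c0), which reduces a precursor on the way to jasmonate, had 459.8, 525 and 505 at 0 h and 234, 239, 209 and 213 at 72 h and a change of -1.14 ± 0.10 (SE, edgeR adjusted p = 7.2e-08). A JAZ repressor match (comp126879_c0, AT5G13220), induced by jasmonate and a brake on its response, had 450.4, 452 and 439 at 0 h and 291, 307, 293 and 259.9 at 72 h and a change of -0.62 ± 0.09 (SE, edgeR adjusted p = 4.6e-05). Lipoxygenases oxidise the fatty acids from which jasmonate is made, although not every family member serves this pathway. The component comp137147_c1 had 468, 474 and 422 at 0 h and 302, 329, 292 and 298 at 72 h, a change of -0.56 ± 0.08 (SE, edgeR adjusted p = 4.8e-05), and comp126550_c0 had 706, 716 and 559.9 at 0 h and 443, 407, 391 and 319 at 72 h, a change of -0.74 ± 0.11 (SE, edgeR adjusted p = 0.00012). A further lipoxygenase (comp134791_c1, AT3G45140), chosen after its values were seen, was the member called higher, with 121, 92.8 and 90.3 at 0 h and 147, 138, 171 and 168 at 72 h and a change of 0.59 ± 0.14 (SE, edgeR adjusted p = 0.0064), lost without 0 h replicate 3.

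Cytokinin genes moved upward. Type-A response regulators are rapidly induced by cytokinin and dampen its signal, and cytokinin oxidases destroy it. Of 16 tested components 9 were higher and 0 lower by edgeR, with a median of 0.48, and leaving out any one library left 6 to 9. The A-type regulator comp103904_c0 (AT3G57040) had 6.48, 3.31 and 10.5 at 0 h and 27.5, 34.2, 45.0 and 45.1 at 72 h and a change of 2.27 ± 0.33 (SE, admitted through 72 h alone). Its means at 6 h and 24 h were 8.31 ± 2.31 (n = 4, SD) and 5.25 ± 2.77 (n = 4, SD). A second regulator (comp103349_c0, AT1G10470) had 80.2, 77.9 and 88.4 at 0 h and 190.4, 204, 183 and 206 at 72 h and a change of 1.24 ± 0.15 (SE, edgeR adjusted p = 6.5e-06). Of the cytokinin oxidase matches, listed as gulonolactone oxidases by their best protein hit, comp131032_c1 had 27.5, 18.2 and 17.7 at 0 h and 55.0, 66.8, 82.9 and 56.7 at 72 h, a change of 1.63 ± 0.21 (SE, edgeR adjusted p = 1.7e-05), and comp130538_c0 had 25.1, 14.9 and 13.7 at 0 h and 37.3, 43.4, 30.3 and 44.9 at 72 h, a change of 1.12 ± 0.25 (SE, edgeR adjusted p = 0.0035).

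Auxin genes gave 10 higher and 2 lower of 43, with a median of 0.02; the lower count was 4 without 0 h replicate 1 and 1 without 0 h replicate 3 or 72 h replicate 2. Among the higher was an influx carrier, which moves auxin into cells. It (comp125373_c0) had 202, 192 and 241 at 0 h and 345, 368, 322 and 347 at 72 h and a change of 0.70 ± 0.09 (SE, edgeR adjusted p = 1.5e-05). Auxin-responsive genes were called higher as well. The amido synthetase GH3.6 (comp124212_c0), which conjugates auxin, had 227, 224 and 180.0 at 0 h and 442, 461, 385 and 326 at 72 h and a change of 0.98 ± 0.13 (SE, edgeR adjusted p = 2.4e-05), and the AUX22 repressor (comp95135_c0) had 89.1, 79.6 and 83.1 at 0 h and 137, 208, 177 and 137 at 72 h and a change of 1.02 ± 0.18 (SE, edgeR adjusted p = 0.00037).

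Of 51 gibberellin components 9 were lower and 2 higher, with a median of -0.23; the higher count was 1 without 0 h replicate 1, 0 h replicate 3, 72 h replicate 3 or 72 h replicate 4. The ent-kaurene synthase (comp133298_c1), an early enzyme of the hormone's synthesis, had 160.4, 191 and 107 at 0 h and 58.9, 88.5, 73.4 and 78.0 at 72 h and a change of -0.94 ± 0.18 (SE, edgeR adjusted p = 0.00094). A carboxylesterase named as a gibberellin receptor GID1 by its protein hit (comp103061_c0), whose Arabidopsis hit is not one of the receptors, had 52.6, 39.8 and 58.3 at 0 h and 17.7, 17.7, 33.5 and 16.5 at 72 h and a change of -1.30 ± 0.24 (SE, edgeR adjusted p = 0.00066). Gibberellin-regulated small proteins moved in opposite directions: comp105180_c0 had 160.4, 133 and 158 at 0 h and 273, 255, 289 and 319 at 72 h, a change of 0.88 ± 0.12 (SE, edgeR adjusted p = 1.9e-05), and comp119428_c1 had 209, 224 and 285 at 0 h and 137, 135, 129 and 146 at 72 h, a change of -0.82 ± 0.14 (SE, edgeR adjusted p = 0.00036).

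The 5 components of ethylene synthesis gave 0 calls by edgeR at 72 h against 0 h, with 2 positive and 3 negative changes and a median of -0.20. An ACC oxidase (comp118906_c0), the enzyme of the last step, was chosen after its values were seen because 1 library decides them. It had 224, 214 and 236 at 0 h and 70.7, 89.0, 78.1 and 371 at 72 h. Replicate 4 of 72 h exceeded all 0 h libraries, while the other 3 lay below them, and the change was -0.73 ± 0.33 (SE, edgeR adjusted p = 0.14). Without that library it was called lower, at -1.47 (edgeR adjusted p = 1.1e-06).

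The authors' hormone classes, which mark contigs by hormone, covered 355 of the tested components. Of these 36 were higher and 51 lower, 24.5% in all against 17.3% of all components tested. The counts below are to be read against the 9.50% higher and 7.81% lower over all components. In the ABA class 3 were higher and 15 lower of 61, and in the jasmonate class 4 and 10 of 49. The cytokinin class had 12 higher and 1 lower of 40, auxin 14 and 10 of 99, and gibberellin 0 and 6 of 26 by edgeR. Brassinosteroid components gave 2 and 2 of 39, ethylene 1 and 5 of 22, and salicylic acid 1 and 2 of 19. The shares called in the brassinosteroid (10.3%) and salicylic acid (15.8%) classes were below that of all components.

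Of 7 tested components of the dormancy-associated and branching list 2 were higher and 1 lower. The higher count was 1 without 72 h replicate 2. The dormancy-associated gene DRM1 is also called auxin-repressed 12.5 kDa protein and marks buds that do not grow in many species. Its match (comp136283_c0), chosen after its values were seen, had 3149, 3762 and 5908 at 0 h and 6992, 5814, 6297 and 4595 at 72 h and was not called, at 0.47 ± 0.17 (SE, edgeR adjusted p = 0.055). It was called higher without 0 h replicate 3, at 0.78 (edgeR adjusted p = 0.0010), or without 72 h replicate 4, at 0.57 (edgeR adjusted p = 0.025). Limma and a replicate block called it as well (adjusted p = 0.036 and 0.015), and its highest adjusted p was 0.28, without 0 h replicate 1. Related components were higher: comp129453_c0 had 1579.9, 1537 and 2163 at 0 h and 3309, 2425, 2985 and 2116 at 72 h, a change of 0.62 ± 0.14 (SE, edgeR adjusted p = 0.0048), and comp127458_c0 had 80.2, 54.7 and 51.7 at 0 h and 92.3, 107, 79.7 and 85.0 at 72 h, a change of 0.58 ± 0.15 (SE, edgeR adjusted p = 0.012). Their groups overlapped. At 24 h both were higher than at 72 h, with means of 5700.1 ± 861 (n = 4, SD) and 180.5 ± 10.8 (n = 4, SD). A homeobox gene of the branching pathway (comp117887_c1, AT4G36740) had 146, 114 and 145 at 0 h and 90.3, 106, 75.0 and 66.1 at 72 h and a change of -0.64 ± 0.18 (SE, edgeR adjusted p = 0.016), lost without 0 h replicate 1, 0 h replicate 3 or 72 h replicate 3.

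Heat shock proteins and chaperones were mixed, with 8 higher and 5 lower of 65 and a median of 0.07. These shares are close to the 9.50% higher and 7.81% lower over all components. The lower count was 3 without 0 h replicate 1 or 0 h replicate 3 and 2 without 72 h replicate 2. Chaperones fold proteins, and some are made only under stress. Among the 12 largest decreases were an HSP90-type (comp135061_c0) and an HSP70-type component (comp130330_c0) of low abundance. The first had 12.1, 34.8 and 74.6 at 0 h and 1.96, 2.85, 3.19 and 2.36 at 72 h, a change of -3.92 ± 0.61 (SE, admitted through 0 h alone), and the second 11.3, 29.8 and 51.1 at 0 h and 0, 1.14, 3.19 and 7.09 at 72 h, a change of -3.82 ± 0.61 (SE, admitted through 0 h alone). Replicate 3 of 0 h was highest in both. A small mitochondrial-type heat shock protein (comp116236_c0) rose, from 101, 118 and 118 to 226, 226, 255 and 184, a change of 1.01 ± 0.17 (SE, edgeR adjusted p = 0.00029). The HSP90 co-chaperone AHA1 (comp113661_c0) had 398, 391 and 549.9 at 0 h and 701, 702, 687 and 669 at 72 h and changed by 0.62 ± 0.10 (SE, edgeR adjusted p = 0.00017). Both HSP90 and HSP70 families have near-identical copies, among which reads are divided.

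Class III peroxidases, secreted enzymes of the wall, gave 2 higher and 4 lower of 14. The higher count was 5 without 0 h replicate 1 and 1 without 0 h replicate 3, 72 h replicate 2, 72 h replicate 3 or 72 h replicate 4, and the lower count was 1 without 0 h replicate 1 and 2 without 72 h replicate 2. The most abundant one (comp120457_c0) had 9817, 9549 and 9722 at 0 h and 7677, 7471, 7275 and 8354 at 72 h and a change of -0.33 ± 0.08 (SE, edgeR adjusted p = 0.0061), and peroxidase 73 (comp109047_c0) had 102, 99.4 and 89.7 at 0 h and 181, 146, 172 and 163 at 72 h, a change of 0.76 ± 0.14 (SE, edgeR adjusted p = 0.00047). Peroxidase 3 (comp114394_c0) changed by -0.35 ± 0.09 (SE, edgeR adjusted p = 0.0081), lost without 0 h replicate 1, and peroxidase 47 (comp117430_c1) by -0.87 ± 0.26 (SE, edgeR adjusted p = 0.024), lost without 0 h replicate 1, 0 h replicate 2, 72 h replicate 1, 72 h replicate 2 or 72 h replicate 3. Autophagy genes, which recycle cell contents, gave 1 higher and 2 lower of 20; the higher call was lost without any library other than 72 h replicates 2 and 3, and 1 lower call remained without 0 h replicate 3 or 72 h replicate 2. An ATG18-type protein (comp109947_c0) and an ATG8-type protein (comp107262_c1) changed by -0.38 ± 0.09 (SE, edgeR adjusted p = 0.0040) and -0.33 ± 0.09 (SE, edgeR adjusted p = 0.011). The member called higher (comp109932_c0, AT3G13970), an ATG12-type protein, changed by 0.79 ± 0.26 (SE, edgeR adjusted p = 0.037).

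Flavonoid genes, which make pigments and tannins, were lower in 7 and higher in 4 of 48. The lower count was 2 without 0 h replicate 1 and 12 without 0 h replicate 3, and the higher count 1 without 0 h replicate 2, 0 h replicate 3 or 72 h replicate 2 and 2 without 72 h replicate 3 or 72 h replicate 4. Chalcone synthase (comp111251_c1), the first enzyme, had 3069.5, 2894 and 1592 at 0 h and 1247, 1372, 1279 and 1630.0 at 72 h and a change of -0.86 ± 0.21 (SE, edgeR adjusted p = 0.0074), lost without 0 h replicate 1. Its replicate 3 of 0 h lay within the range of the 72 h libraries. Flavonoid 3′-hydroxylase (comp104372_c0) had 2769, 2529 and 1735 at 0 h and 1431, 1326, 1229.5 and 1528 at 72 h and a change of -0.77 ± 0.18 (SE, edgeR adjusted p = 0.0043), and anthocyanidin reductase (comp117898_c0), which makes tannin units, had 3706, 3573 and 2421 at 0 h and 2057, 2212, 1946 and 2428 at 72 h, a change of -0.58 ± 0.14 (SE, edgeR adjusted p = 0.0067), with an overlap and lost without 0 h replicate 1. The proton pump AHA10 of the tannin vacuole (comp132286_c0) rose by 0.51 ± 0.12 (SE, edgeR adjusted p = 0.0052). All 3 enzymes were higher at 72 h than at 24 h: chalcone synthase by 1.36 (edgeR adjusted p = 1.3e-05).

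Clock genes vary over the day, and the study's methods give the same hour of harvest for both groups, around noon, whereas the labels give an hour marked am. Of 12 components 2 were higher and 4 lower, counts that fell to 1 higher without any library other than 0 h replicate 3 and 72 h replicate 2, and to 2 lower without 0 h replicate 1 or 0 h replicate 3. The LHY match (comp133357_c0), a morning factor, had 1902, 1785 and 1197 at 0 h and 1301, 943, 742 and 1208 at 72 h and a change of -0.64 ± 0.17 (SE, edgeR adjusted p = 0.011), lost without 0 h replicate 1. A related morning factor (comp124262_c0, AT5G17300) had 264, 287 and 143 at 0 h and 133, 103, 149.9 and 120.5 at 72 h and changed by -0.86 ± 0.18 (SE, edgeR adjusted p = 0.0022). The groups of both overlapped. A pseudo-response regulator (comp118278_c2, AT5G24470) changed by -1.14 ± 0.28 (SE, edgeR adjusted p = 0.0064), lost without 0 h replicate 3. GIGANTEA (comp133368_c1), which links the clock to day length, had 513, 592 and 734 at 0 h and 817, 824, 922 and 815 at 72 h and rose by 0.46 ± 0.10 (SE, edgeR adjusted p = 0.0033).

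Meristem and leaf primordium genes gave 5 higher and 0 lower of 32 by edgeR, with a median of 0.05, against 9.50% higher and 7.81% lower over all components. The higher count was 3 without 0 h replicate 1, 0 h replicate 3, 72 h replicate 2, 72 h replicate 3 or 72 h replicate 4. The AINTEGUMENTA match (comp131365_c0), which sustains growth of young organs, had 313, 285 and 276 at 0 h and 418, 459, 392 and 497 at 72 h and a change of 0.60 ± 0.11 (SE, edgeR adjusted p = 0.00051). An APETALA2 match (comp95427_c0) had 103, 97.8 and 99.5 at 0 h and 134, 173, 156 and 154 at 72 h and a change of 0.64 ± 0.12 (SE, edgeR adjusted p = 0.00086). YABBY genes mark the lower side of leaf primordia, and comp120758_c0 and comp89231_c0 changed by 0.45 ± 0.13 (SE, edgeR adjusted p = 0.023) and 1.08 ± 0.32 (SE, admitted through 72 h alone). Both calls were lost in several leave-one-out fits, among them the fit without 0 h replicate 3.

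Surface, water and latex genes completed the lists. In the cuticle and wax list 4 were higher and 2 lower of 34, close to the 9.50% and 7.81% over all components. The CER2 match (comp127175_c1), needed for the longest wax chains, had 72.1, 49.7 and 47.1 at 0 h and 133, 136, 118 and 127 at 72 h and a change of 1.19 ± 0.19 (SE, edgeR adjusted p = 0.00016). A lipid-transfer protein (comp84829_c0) had 394, 394 and 405 at 0 h and 169, 223, 197 and 196 at 72 h and a change of -0.99 ± 0.13 (SE, edgeR adjusted p = 2.0e-05). Another (comp91674_c0) changed by -0.74 ± 0.18 (SE, edgeR adjusted p = 0.0059), lost without 0 h replicate 3, and an oxidoreductase of the list (comp132031_c0, AT1G72970) by 0.37 ± 0.08 (SE, edgeR adjusted p = 0.0019). Of 15 aquaporins, the water channels of membranes, 3 were higher and 2 lower, the latter 1 without 0 h replicate 2, 0 h replicate 3 or 72 h replicate 2. A tonoplast aquaporin (comp116695_c0) had 1234, 1391 and 1466 at 0 h and 2063, 2022, 2346 and 2972 at 72 h and a change of 0.78 ± 0.12 (SE, edgeR adjusted p = 0.00015), while a NIP-type channel (comp109641_c1) changed by -0.82 ± 0.20 (SE, edgeR adjusted p = 0.0060), lost without 0 h replicate 3. A further aquaporin (comp129573_c0, AT2G16850) changed by 0.54 ± 0.17 (SE, edgeR adjusted p = 0.031), lost without 0 h replicate 2, 0 h replicate 3 or 72 h replicate 2. Of 10 latex components 3 were lower and 1 higher. The higher one was the aldolase comp117289_c3 already given with the Calvin cycle, at 1.89 and admitted through 72 h alone. Rubber elongation factor (comp91223_c0) and small rubber particle protein (comp109321_c0), which coat rubber particles, were among the lower. The first had 432, 501 and 547 at 0 h and 300.4, 271, 327 and 335 at 72 h, a change of -0.70 ± 0.09 (SE, edgeR adjusted p = 2.6e-05). The second had 4299, 4528 and 5843 at 0 h and 3083, 2961, 2831 and 2719 at 72 h, a change of -0.75 ± 0.11 (SE, edgeR adjusted p = 5.0e-05), and neither overlapped. Hevamine (comp110256_c0), a chitinase of latex, changed by -0.58 ± 0.09 (SE, edgeR adjusted p = 0.00018).

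By mean normalized count, the largest differences lay in abundant components. The largest gain in mean normalized count was that of an alkaline alpha-galactosidase match (comp123366_c0, AT3G57520), an enzyme family that splits raffinose-type sugars. It had 2182, 2297 and 1726 at 0 h and 5809, 5823, 6484 and 6785 at 72 h, a change of 1.59 ± 0.18 (SE, edgeR adjusted p = 3.8e-06), and was at 6312 ± 1691 (n = 4, SD) by 6 h. Catalase (comp126585_c0), which removes hydrogen peroxide, had 11908, 11659 and 11552 at 0 h and 15281, 14047, 14084 and 14275 at 72 h and a change of 0.30 ± 0.08 (SE, edgeR adjusted p = 0.017), lost without 0 h replicate 2, 0 h replicate 3 or 72 h replicate 1. It had been at 23438 ± 838 (n = 4, SD) at 6 h. Endoplasmin (comp113365_c0), the HSP90 of the endoplasmic reticulum, had 2626, 2640.2 and 2329.7 at 0 h and 4341, 4787, 4888 and 5625 at 72 h and a change of 0.96 ± 0.09 (SE, edgeR adjusted p = 2.3e-07). The tonoplast aquaporin comp111114_c0 had 3878, 4188 and 4416 at 0 h and 5228, 4871, 5781 and 7188 at 72 h and a change of 0.47 ± 0.13 (SE, edgeR adjusted p = 0.016), lost without 0 h replicate 1 or 72 h replicate 4.

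The largest loss was that of a type 2 metallothionein (comp100494_c0), a small metal-binding protein, with 16526, 18298 and 22951 at 0 h and 8525, 7703, 8218 and 6868 at 72 h and a change of -1.30 ± 0.12 (SE, edgeR adjusted p = 1.3e-07). S-adenosylmethionine decarboxylase (comp120485_c0), of polyamine synthesis, had 12921, 12500.3 and 12327 at 0 h and 7503, 7235, 6620.1 and 7273 at 72 h and a change of -0.81 ± 0.09 (SE, edgeR adjusted p = 1.6e-06), and its mean at 6 h was lower still, 4279 ± 281 (n = 4, SD). A cognate HSP70 (comp129972_c0) had 18565, 18438 and 22130.5 at 0 h and 17405, 14922, 15528 and 14263 at 72 h, a change of -0.34 ± 0.10 (SE, edgeR adjusted p = 0.024), lost without 0 h replicate 3, 72 h replicate 2, 72 h replicate 3 or 72 h replicate 4. The starch branching enzyme and granule-bound starch synthase given with starch complete the 5 largest losses.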

How the data were processed

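Strand-specific libraries of buds were sequenced on 1 lane per the study's methods. The authors assembled reads with Trinity, together with other leafy spurge reads, and counted them per contig with RSEM. The deposited table holds RSEM expected counts for 569227 contigs and for the components they belong to in 15 libraries, with best protein and Arabidopsis hits. Its columns of posterior probabilities of differential expression are the authors' own comparisons and were not used. RSEM divides reads among similar contigs, so close copies are less certain than their standard errors. Its commands took first reads as coming from the forward strand of a contig. Whether all contigs are oriented to match was not tested.

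Expected counts per component were taken as deposited, rounded to whole numbers for the fits, and scaled by median-of-ratios size factors over 21790 components. edgeR 4.0.16 (R 4.3.3) fitted its quasi-likelihood model to all 4 time points, so all 15 libraries share 1 estimate of spread, with Benjamini-Hochberg adjustment over 17508 components and a threshold of 0.05. An SE is the log2 fold change divided by the square root of F. The procedure was tested on simulated data. Figures and summaries used Python 3.11.15, pandas 2.3.3, numpy 2.4.6, scipy 1.17.1 and matplotlib 3.10.9. Precision follows from depths of 1847115 to 7253556 counts per library.

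Named genes were the 12 largest increases and decreases (called, groups separate, mean of at least 20, a named plant hit with at least 50% of counts), up to 4 of lowest p per list, and the 5 largest gains and losses in mean count. Others are named as chosen after their values were seen. A gene that the rule names in the auxin list is not reported here. The members and lists were chosen with earlier results of these data known. Alternatives were TMM scaling, DESeq2 1.42.0, limma 3.58.1 with a pseudocount of 1, other filters, one of them (a minimum of 5) chosen after seeing the data, the 7 libraries alone, a replicate block, plant components only, stricter thresholds, list membership by any contig and leaving out each library. Transcript sequences of the components were not used here.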

Additional observations from a re-analysis of the deposited data

Results flagged for a closer look

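Among 205 items checked (named components, summed list levels and shares of counts), 10 had 1 library of 72 h far from the other 3, and chance alone gives about 1 in 20. The largest gap was that of ACC oxidase (comp118906_c0), with 370.9 normalized counts in replicate 4 against 70.7 to 89.0 in the others, and with it the summed level of the ethylene synthesis list, 579 in replicate 4 against 284 to 304.6. Replicate 4 was also the high library for beta tubulin (comp100679_c0), 122.8 against 100.4 to 104, for the plant cysteine oxidase match (comp116517_c0), 387 against 261 to 277, and for pyruvate decarboxylase (comp132710_c0), 1039.4 against 808 to 832. Replicate 3 was high for the carboxylesterase (comp103061_c0), 33.5 against 16.5 to 17.7, and for GIGANTEA (comp133368_c1), 922 against 815 to 824, and low for the transcription regulator comp114319_c1, 15.9 against 23.6 to 24.5. Replicate 1 was high for the ATG18-type protein (comp109947_c0), 455 against 351 to 368, and for the chlorophyll binding protein called lower (comp124975_c0), 25.5 against 17.5 to 18.9. The cause was not tested.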

How the results depend on the processing

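The count of components called at 72 h against 0 h, 3032, was 2556 with DESeq2, 3074 with limma, 3033 with TMM scaling and 3162 with the 7 libraries alone. Without a filter, 74026 components were fitted and 2910 called, but edgeR's prior degrees of freedom were then infinite (10.2 for the 17508 components), so that fit gave no component a spread of its own and its calls say nothing about stability. A minimum of 5, chosen after seeing this, gave 3074 calls. The count was 1542 at an adjusted p under 0.01 (826 higher and 716 lower) and 1532 with a change of at least 1.5-fold as well (852 and 680). Against 24 h it was 5052 with at least 1.5-fold, and against 6 h 2602 at an adjusted p under 0.01 and 1866 with at least 1.5-fold. Leaving out 1 library gave 2100 to 2757 calls, lowest without 72 h replicate 2 and without 0 h replicate 3 (2107). A replicate block gave 3266 calls. Deviations of same-numbered libraries correlated at -0.026, -0.0054 and 0.038. Such correlations cannot show how the libraries were handled, so whether the numbers pair the libraries is not known. The alternatives were followed for 157 named genes, 11 of them chosen after their values were seen. These 11 include the DRM1 match and ACC oxidase, which had no call in the main fit. Of the 157, 106 kept their call under all 18 alternatives other than the fit without a filter and 126 without each library, and none of them reversed. Scaling alternatives moved the median change of all components by at most 0.01. The shallowest library held 1847115 counts, which limits components near the minimum of 10.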
